A study of Bubalus bubalis with 36 samples.

Results

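Fat under the skin of the sternum was compared with fat of the inguinal region, both from the same 6 buffaloes (Bubalus bubalis), by sequencing of small RNA. The comparison used the 6 libraries whose titles name sternum subcutaneous adipose tissue (SSAT) and the 6 whose titles name inguinal adipose tissue (IAT), 12 of the 36 libraries of the series, and paired them by the buffalo number of the title. All 1682 rows of the count table with a name entered: 695 carried a bovine miRNA name and 987 only the identifier of a candidate locus. Of these, 515 passed the filter on low counts and were tested, 324 with a miRNA name and 191 candidate loci, while 1167 fell below it.

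Per the labels, weaning was at 3 months of age, fattening began at 15 months and slaughter followed at 20 months, and no treatment is named for any group. The series set subcutaneous fat (back, sternal, inguinal) beside visceral fat (omental, pericardial, perirenal), so sternal and inguinal fat are 2 depots of the same class, taken towards the front and the rear of the trunk. Each library is 1 depot of 1 animal, and no label gives the sex, the breed or the side sampled. All 12 library names carry the letter B, which the labels leave unexplained.

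MicroRNAs (miRNAs) are short RNAs that guide repression of messenger RNAs with matching sites. Several lie inside the HOX gene clusters, whose genes are switched on in an ordered way along the body axis and keep a record of position in adult fat: miR-196a lies in the HOXB and HOXC clusters, miR-196b in HOXA, miR-10a in HOXB, miR-10b in HOXD and miR-615 in HOXC. The miR-196 genes sit among the more posterior HOX genes and repress members of the HOX family, and the miR-10 genes sit beside more anterior ones. Another group described here comes from the imprinted DLK1-DIO3 domain, where a long series of miRNAs is expressed from the chromosome inherited from the mother, and DLK1 itself is an inhibitor of fat cell formation.

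The libraries of the 2 depots were much alike. Totals ran from 10738131 to 13920998 counts (median 12490470), and 867 to 957 features were detected per library. The median correlation of log2 levels was 0.948 within sternal and 0.946 within inguinal fat, and 0.951 between the depots of the same animal. No pair agreed within sampling noise. Candidate loci took 25.4% ± 1.54 (SD, n = 6) of the counts in sternal and 23.2% ± 2.23 (SD, n = 6) in inguinal fat, more in sternal fat in 5 of 6 buffaloes (exact paired permutation test, two-sided, p = 0.0625, adjusted over 5 library measures p = 0.312). With 6 pairs this test can give no p below 0.0312. Sternal library 1 had the lowest correlations of the 12, and inguinal library 6 stood apart in leukocyte and epithelial miRNAs, given with the cell-type markers.

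Levels are CPM, counts scaled to a common library total after TMM factors, which set the bulk of the features equal between libraries. Differences are log2 of sternal over inguinal from edgeR's quasi-likelihood test with the animal as a block, ± SE, and a feature was called where its p, adjusted by the Benjamini-Hochberg method over all 515 features, was under 0.05. Calls by another tool or without the filter are named as such. A positive value is higher in sternal fat. No sequencing batch or date is named in the labels.

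A single feature was called, miR-196a, which was lower in sternal fat. It makes up 0.194% of the features tested, and 0 (0%) were called higher. At an unadjusted p under 0.05 there were 34 lower features (6.6%) and 30 higher ones (5.83%). The median difference over all 515 was 0.03, with 243 below 0. On library totals alone, without TMM factors, this median was −0.17 with 327 below 0, and values near 0 are read against that shift. Among the 515 features, 92 (17.9%) were lower in sternal fat in at least 5 of 6 buffaloes and 89 (17.3%) were higher. The sternal and inguinal ranges did not overlap for 3 features (0.583%) with sternal fat below, which were miR-196a, miR-654 and the candidate locus NC_059164.1_21941, and for 0 features (0%) with sternal fat above. DESeq2 with the same block called 15 lower (2.91%) and 4 higher (0.777%), miR-196a among the lower.

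**Figure D1:**
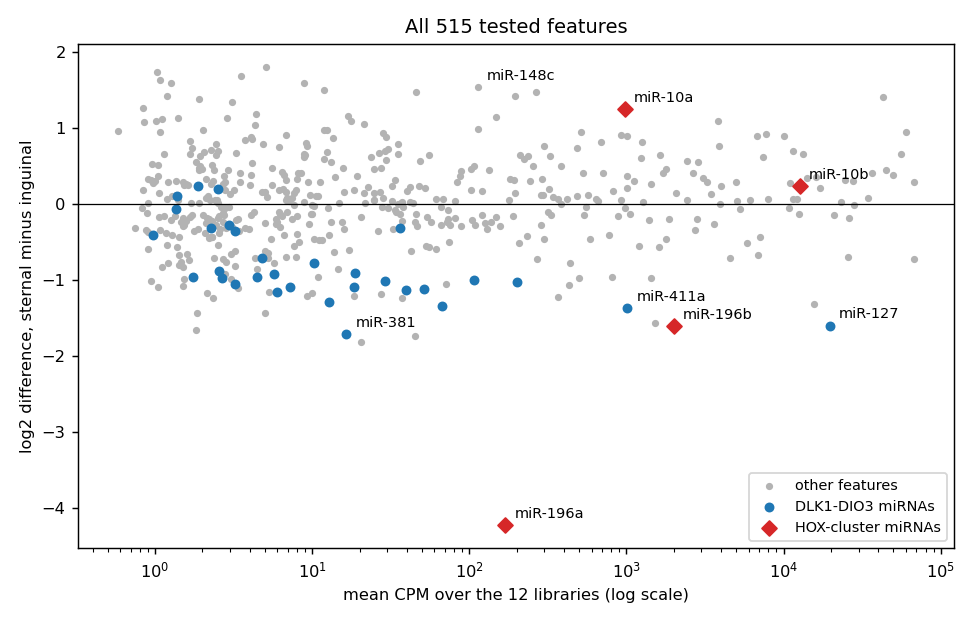
Differences between sternal and inguinal fat for all 515 features tested, as log2 of sternal over inguinal (vertical axis) against mean CPM over the 12 libraries (horizontal axis, log scale), with HOX-cluster miRNAs as red diamonds and DLK1-DIO3 miRNAs as blue points. Only miR-196a, at −4.22, was called, and 28 of 31 DLK1-DIO3 miRNAs lie below 0.

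Among the HOX-cluster miRNAs, miR-196a was expressed in every library. In buffaloes 1 to 6 its level in sternal fat was 12.5, 21.9, 8.99, 22.8, 24.3 and 11.2 CPM, and in inguinal fat 511.7, 218.1, 190.8, 371.3, 458.7 and 181.8 CPM. The highest sternal library therefore lay far below the lowest inguinal one. These levels rest on 121 to 279 counts in the sternal and 2279 to 6261 counts in the inguinal libraries, so counting error is small beside the spread between animals. The means were 16.9 ± 6.76 and 322.1 ± 144.8 CPM (SD, n = 6 each).

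The fitted difference of miR-196a was −4.22 ± 0.35 (95% interval −4.997 to −3.448, edgeR adjusted p = 0.000199). On a linear scale the inguinal level was 18.7-fold the sternal one (10.9 to 31.9). The drop was seen in 6 of 6 buffaloes, and the differences of the single animals ran from −5.34 in buffalo 1 to −3.31 in buffalo 2. It was called in all 16 alternative settings that kept it as a feature of its own, with values from −4.45 to −4.12 and adjusted p up to 0.00224.

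Its relative miR-196b, which differs from miR-196a by very little in sequence and carries the same targeting region, was far more abundant, and its difference was not called in the main test. Levels in sternal fat had a lowest value of 376, a median of 865 and a highest of 3094 CPM, and in inguinal fat 1578, 2334 and 5071 CPM. The ranges overlap because of sternal library 2, at 3094 CPM, which exceeded the inguinal library of the same animal (2223 CPM). The other 5 buffaloes had less in sternal fat, and the fitted difference was −1.60 ± 0.56 (95% interval −2.86 to −0.35, edgeR adjusted p = 0.324). It was called lower by DESeq2 (−1.63, adjusted p = 0.035) and by edgeR with no filter (−1.64, adjusted p = 0.0065).

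Because reads of such near-identical miRNAs can be split between them by the counting, the pair was also summed. The sum differed by −1.73 ± 0.53 and was not called (edgeR adjusted p = 0.266). As a share of the pair, miR-196a made up 0.702% to 5.46% in sternal fat (2.28% ± 1.79, SD, n = 6) and 8.15% to 13.2% in inguinal fat (10.1% ± 1.79, SD, n = 6). The 2 ranges of this share do not overlap, and the call holds for the counts assigned to miR-196a, not for the total of the pair.

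For miR-10a the values lay in the other direction. In sternal fat miR-10a had a lowest level of 708, a median of 1274 and a highest of 2266 CPM, and in inguinal fat 431, 487 and 765 CPM. Sternal fat had more in 6 of 6 buffaloes, and only sternal library 2, at 708 CPM, lay below the highest inguinal library. The difference of miR-10a was 1.26 ± 0.26 (95% interval 0.68 to 1.83), with the second smallest p of all features (0.000701), but it was not called (edgeR adjusted p = 0.181). DESeq2 with the same block called miR-10a higher (1.23, adjusted p = 0.00648).

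The most abundant HOX-cluster miRNA, miR-10b, was near equal in the means of the fit. Its sternal levels ran from 9302 over a median of 12150 to 21447 CPM and its inguinal levels from 9444 over 10811 to 15565 CPM. Sternal fat had more in 3 of 6 buffaloes, and the difference was 0.24 ± 0.22 (95% interval −0.27 to 0.74, edgeR adjusted p = 0.745). As a share of the miR-10 pair, miR-10a made up 7.08% to 13.3% in sternal and 3.55% to 6.55% in inguinal fat. The fifth HOX-cluster member, miR-615, had 51 counts over the 6 sternal and 65 over the 6 inguinal libraries and fell below the filter.

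**Figure D2:**
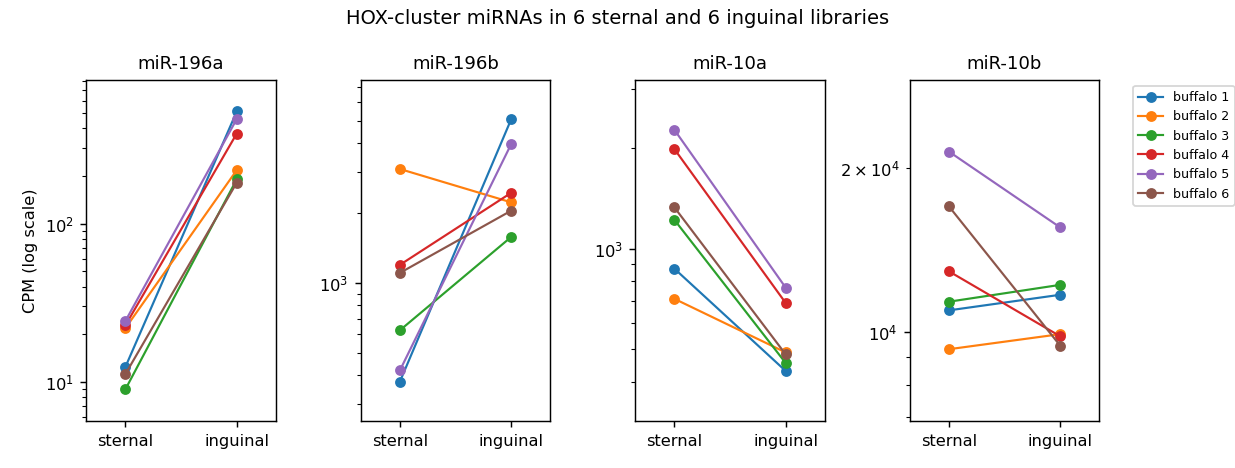
Levels of miR-196a, miR-196b, miR-10a and miR-10b in CPM on a log axis, 1 point per library, with lines that join the sternal and inguinal library of the same buffalo. All 6 lines of miR-196a climb from sternal to inguinal fat and all 6 of miR-10a descend. For miR-196b 1 line runs against the rest, and the lines of miR-10b are split, with 3 in each direction.

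The other 4 depots of the same animals place these levels on a wider scale. With CPM scaled over all 36 libraries, the 6 sternal libraries held 8.96 to 26.2 CPM of miR-196a (median 18.0) and the 6 inguinal ones 190 to 586 CPM (median 324). The median was 134.5 CPM in back fat and 212.3 CPM in perirenal fat, against 3.13 CPM in the omental and 0.593 CPM in the pericardial libraries. Sternal fat was thus the lowest of the 3 subcutaneous depots, its highest library lying below the lowest back library (28.4 CPM), and every sternal library lay above every pericardial one (at most 1.84 CPM). Omental fat overlapped with it through 1 library, at 34.9 CPM. For miR-10a sternal fat had the highest mean of the 6 depots, at 1492 ± 676 CPM, against 131.8 ± 43.1 CPM in pericardial fat, and its range overlapped those of all depots but the pericardial one. These levels are a description, with no test between depots.

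**Figure D3:**
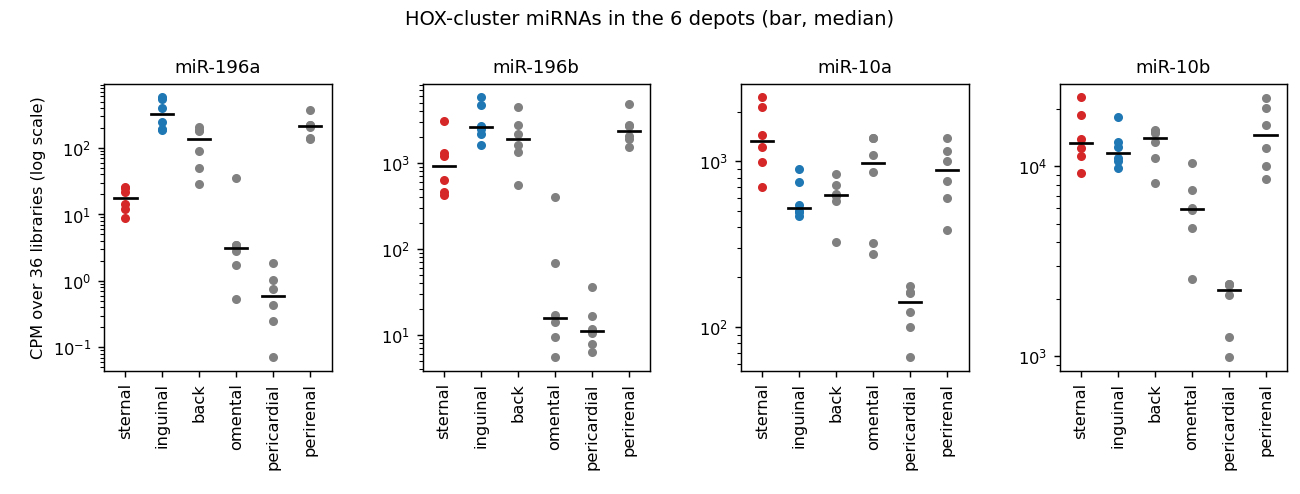
Levels of the HOX-cluster miRNAs in the 6 depots in CPM on a log axis, 1 point per library and a bar at the median of each depot, with sternal fat in red, inguinal fat in blue and the other depots in grey. Sternal fat holds less miR-196a than back, inguinal and perirenal fat and more than pericardial fat, while its miR-10a is the highest by mean.

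Pericardial and perirenal fat are a chest and a caudal depot among the visceral ones, and share no library with the sternal and inguinal depots. The pericardial minus perirenal difference was −8.37 for miR-196a, −7.76 for miR-196b, −2.86 for miR-10a and −3.09 for miR-10b, beside −4.26, −1.76, 1.29 and 0.27 for sternal minus inguinal in the same fit of 24 libraries. The difference between these 2 contrasts was itself called for all 4 miRNAs (edgeR, adjusted over 619 features, of which 3.88% were called). It was 4.11 ± 0.75 for miR-196a (adjusted p = 0.00179), 6.00 ± 0.61 for miR-196b (adjusted p = 1.95e-06), 4.15 ± 0.41 for miR-10a (adjusted p = 1.95e-06) and 3.35 ± 0.37 for miR-10b (adjusted p = 4.14e-06). Both miR-196 miRNAs had values below 0 in both contrasts, closer to 0 among the subcutaneous depots, and miR-10a had opposite signs. Pericardial miR-196a ran from 0.0703 to 1.84 CPM, and in library 6 it lay below the 0.236 CPM that 3 counts make there. The sizes of its pericardial minus perirenal value and of its difference between contrasts therefore rest on few counts.

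The DLK1-DIO3 miRNAs leaned towards inguinal fat as a group. Of 56 in the table, 31 were tested, 25 fell below the filter, and edgeR called 0 in either direction. DESeq2 with the same block called 7 lower (miR-127, miR-369-3p, miR-376b, miR-381, miR-411a, miR-411c-5p and miR-493) and 0 higher, beside 2.91% lower and 0.777% higher of all features. With no filter edgeR called 3 lower (miR-127, miR-381 and miR-411a), beside 8 lower of all 1463 features in that setting. Among the 31, 28 lay below 0 and 3 above, with a median of −0.96 and a range from −1.71 to 0.24. The other 484 features, which carry no name of a listed member, had a median of 0.06 with 269 above 0. At an unadjusted p under 0.05 there were 15 lower and 0 higher, beside 6.6% and 5.83% of all features, and 21 were lower in at least 5 of 6 buffaloes, beside 17.9% of all features. On library totals alone the median of the 31 was −1.16, with 30 below 0. The list was chosen with earlier results of these data known and its members are read from shared primary transcripts, so they are not independent measurements.

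The domain holds a group around miR-127, which is transcribed antisense to RTL1, and a longer group from miR-379 to miR-656. All 6 tested members of the miR-127 group lay below 0 (median −0.95), as did 22 of 25 of the longer group (median −0.96). By animal, the median over the 31 was −1.05, −1.09, −0.33, −1.08, −1.44 and 0.05 in buffaloes 1 to 6. Buffalo 6 thus showed no lean, with 13 of 31 members below 0, buffalo 3 a smaller one with 19, and the other 4 had 27 to 29. Without buffalo 5, 8 members instead of 15 had an unadjusted p under 0.05, and without buffalo 6, 18.

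**Figure D4:**
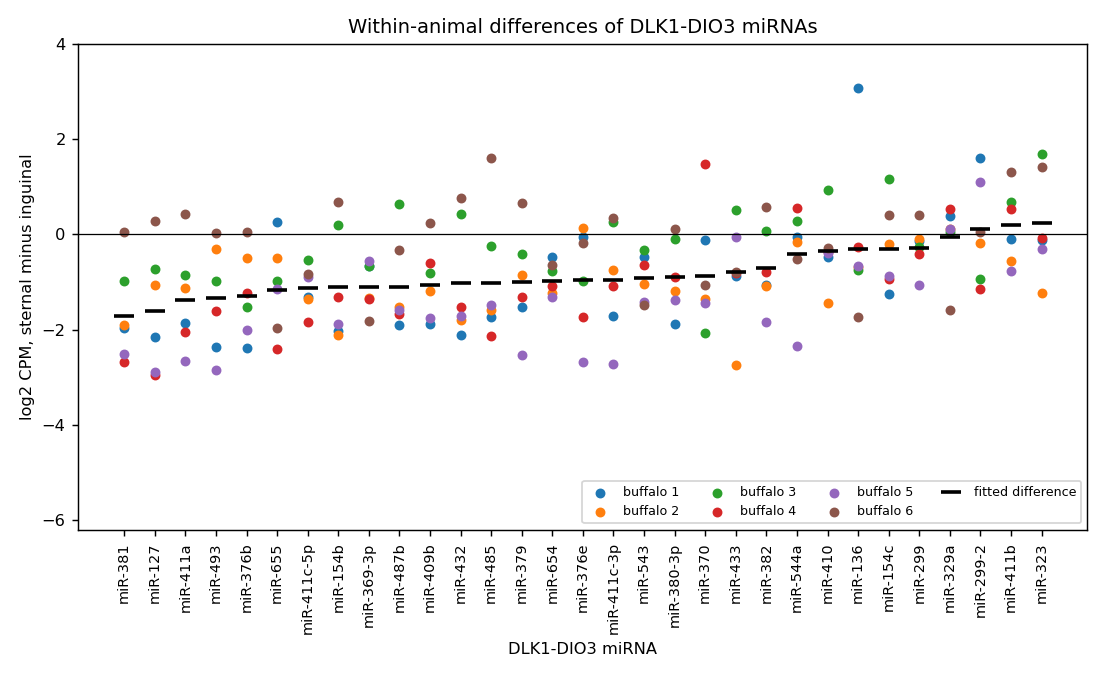
Sternal minus inguinal difference in log2 CPM (vertical axis) of each of the 31 tested DLK1-DIO3 miRNAs (horizontal axis, in order of their fitted difference), with 1 point per buffalo and a dash at the fitted difference. The points of buffalo 6 lie mostly near or above 0 and those of buffaloes 1, 2, 4 and 5 mostly below, with 28 of 31 dashes below 0.

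By far the most abundant DLK1-DIO3 member, miR-127, reached 9423, 14706, 13320, 4223, 4622 and 15668 CPM in the sternal libraries of buffaloes 1 to 6 and 42140, 30576, 21923, 32856, 34284 and 12935 CPM in the inguinal ones. Only buffalo 6 had more in sternal fat, and its inguinal library is the one that brings the ranges to overlap. The difference was −1.60 ± 0.46 (edgeR adjusted p = 0.275). In miR-411a, of the longer group, the sternal libraries ran from 309 over a median of 588 to 832 CPM and the inguinal ones from 585 over 1468 to 1936 CPM, with a difference of −1.37 ± 0.41 (edgeR adjusted p = 0.278). Again buffalo 6 was the exception, with 788 CPM in sternal and 585 CPM in inguinal fat.

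The member with the largest difference, miR-381, had sternal levels of 4.20 to 11.6 CPM (median 6.00) and inguinal levels of 4.71 to 43.7 CPM (median 27.3), a difference of −1.71 ± 0.42 (edgeR adjusted p = 0.202). Its lowest inguinal library was also that of buffalo 6. For miR-411c-5p, 6 of 6 buffaloes had less in sternal fat, with medians of 20.1 against 39.6 CPM and a difference of −1.13 ± 0.27 (edgeR adjusted p = 0.202). Library 2 was high in both depots, at 45.4 and 116 CPM. The same direction in 6 of 6 was seen for miR-369-3p, at −1.10 ± 0.32, for miR-543, and for miR-654. The last ran from 1.16 to 2.16 CPM in sternal and from 2.62 to 4.76 CPM in inguinal fat (−0.97 ± 0.32). Among all features, 13 (2.52%) were lower in 6 of 6.

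Further members were miR-493, at −1.34 ± 0.43 with medians of 29.7 and 87.3 CPM, and miR-432, at −1.03 ± 0.46 with medians of 116 and 275 CPM. Neither was called by edgeR (adjusted p = 0.296 and 0.408). The fitted value of miR-136 was −0.32 ± 0.56 although its mean was higher in sternal fat, through a single library of 153 CPM. With the animal block, miR-127 and miR-411a were called by DESeq2 (adjusted p = 0.0289 and 0.0338) and by edgeR with no filter (adjusted p = 0.00153 and 0.0271). In edgeR fits that took the spread from all 36 libraries, miR-381 was called with and without the animal block (−1.85, adjusted p = 0.0281, and −1.93, adjusted p = 0.0308), and miR-411a (−1.39) and miR-127 (−1.57) were called without it (edgeR adjusted p = 0.0308 each), with adjusted p of 0.0594 and 0.0614 with it.

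Some candidate loci without a miRNA name had values of the same kind. The identifiers beginning with NC_059176.1 were looked at after their values were seen, so their values are a description. Of 30 such loci 12 were tested. Of these 7 (58.3%) lay below 0, beside 47.2% of all features, and 5 above, with a median of −0.26. An unadjusted p under 0.05 was seen for 4, all 4 lower, beside 6.6% lower and 5.83% higher of all features. DESeq2 called 3 of the 12 lower, beside 2.91% of all features, and edgeR with no filter 1, beside 8 of all 1463 features in that setting. The most abundant of those 4, NC_059176.1_40495, ran from 5798 over a median of 8744 to 12681 CPM in sternal fat and from 10447 over 23794 to 29507 CPM in inguinal fat (−1.32 ± 0.36, edgeR adjusted p = 0.275). As with miR-127, it was higher in sternal fat in buffalo 6 alone. The table does not say which miRNA, if any, these identifiers stand for.

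On the higher side edgeR called no feature, and those with the smallest p are given as values. The candidate locus NC_059159.1_8293 ran from 2919 over 5078 to 7319 CPM in sternal and from 1542 over 2494 to 3206 CPM in inguinal fat, more in sternal fat in 6 of 6 buffaloes (1.10 ± 0.27, edgeR adjusted p = 0.202), and DESeq2 called it (adjusted p = 0.0367). A similar picture held for miR-3613a, whose sternal libraries ran from 684 over 1354 to 1696 CPM and inguinal ones from 560 over 633 to 906 CPM (0.90 ± 0.26, edgeR adjusted p = 0.275), again higher in 6 of 6. Of all features 17 (3.3%) were higher in 6 of 6. Lower-level features on this side were miR-1839 (1.05 ± 0.32), miR-454 (1.16 ± 0.37) and miR-374b (0.88 ± 0.32, and 0.56 without buffalo 1), each higher in 5 of 6 buffaloes.

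In the miR-148 and miR-152 family, whose members share a targeting region and act on DNA methyltransferase and lipid genes, all 4 tested members lay above 0 and 3 had an unadjusted p under 0.05. The median was 0.86, beside 0.03 for all features. In sternal fat miR-148c was at 730, 73.6, 37.6, 212, 29.8 and 37.9 CPM in buffaloes 1 to 6, and in inguinal fat at 124.3, 36.9, 15.8, 19.1, 22.6 and 22.0 CPM. Buffalo 1 was the highest in both depots, and 6 of 6 had more in sternal fat (1.54 ± 0.44, edgeR adjusted p = 0.275). Buffalo 1 also led in miR-152, at 2175 and 1059 CPM, where the medians were 278 and 193 CPM (0.95 ± 0.37, edgeR adjusted p = 0.348). The lower-level miR-148b was at 0.76 ± 0.32. Since these members are close in sequence, their single values are uncertain. Unfiltered edgeR and DESeq2 each called miR-148c higher.

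**Figure D5:**
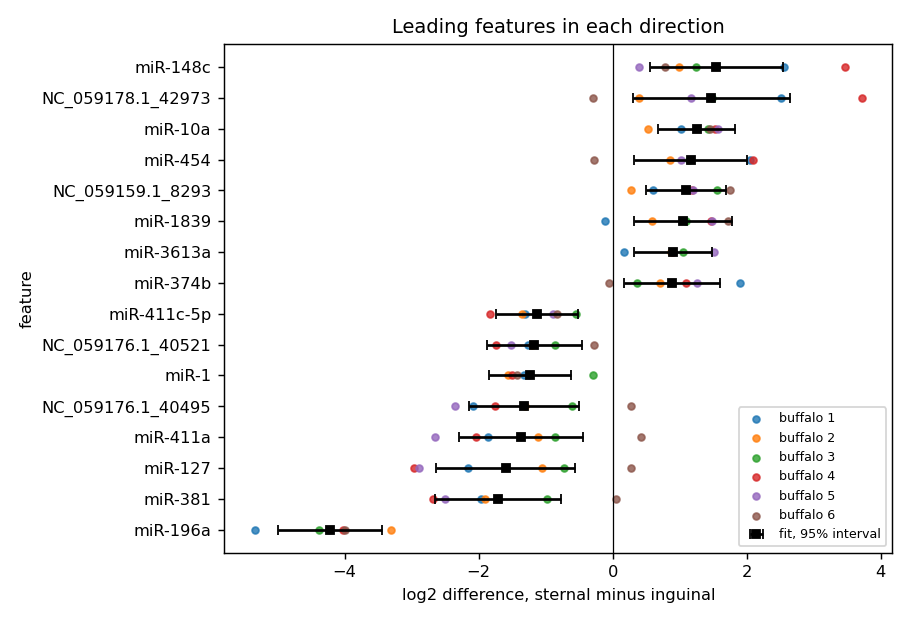
Differences between sternal and inguinal fat (horizontal axis, log2) of the features named for the smallest p in each direction, with 1 coloured point per buffalo, and a black square with a bar for the fitted value and its 95% interval. The interval of miR-196a lies apart from all the others shown, and no other feature was called by the edgeR fit shown.

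In the most abundant families edgeR called no member, and with no filter it called miR-26c. Of the let-7 family, the most abundant miRNAs of the tissue and repressors of growth genes, 9 of 10 tested members lay above 0 with a median of 0.31 (6 of 10 and 0.11 on library totals alone). In let-7i the sternal libraries ran from 40872 over 62786 to 110316 CPM and the inguinal ones from 35627 over 41560 to 55667 CPM, a difference of 0.66 ± 0.26 (95% interval 0.07 to 1.25, edgeR adjusted p = 0.351), higher in 5 of 6. For let-7c the difference was 0.29 (95% interval −0.29 to 0.88) and for let-7f 0.45 (−0.04 to 0.94). Both upper bounds lie below 1 on the log2 scale.

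For miR-26a, which promotes fat cell formation, and miR-26c, the reads went to 1 or the other from library to library. The share of miR-26a in the pair was 6.09% to 92.7% among sternal and 16.4% to 96.7% among inguinal libraries, with no library between 18.6% and 88.9%. Their single differences of −0.72 ± 0.88 and 1.41 ± 0.91 therefore carry wide intervals, with miR-26c at 1.37 and called with no filter (edgeR adjusted p = 0.0342) and at 0.66 without buffalo 1. The sum differed by 0.16 ± 0.17 (edgeR adjusted p = 0.79). The same caution holds for miR-23a (0.90 ± 0.39, edgeR adjusted p = 0.383), whose sum with miR-23b-3p was at 0.48 ± 0.35, and for miR-199b (0.91 ± 0.34, edgeR adjusted p = 0.325), whose sum with miR-199a-3p was at 0.54 ± 0.29.

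In lists of miRNAs tied to fat cell function edgeR called 0 members. Of the pro-adipogenic list, 16 of 23 tested members lay above 0 (median 0.41), beside 272 of all 515 features, and 2 had an unadjusted p under 0.05, both higher. By animal the median of this list was 1.11 in buffalo 1 and 0.08 to 0.48 in buffaloes 2 to 5. In buffalo 6 it was −0.105, with 15 of 23 members below 0. Of the anti-adipogenic list, 10 of 17 lay below 0 (median −0.10), and 3 had an unadjusted p under 0.05, all lower. One of these was miR-31, with medians of 8.43 CPM in sternal and 27.1 CPM in inguinal fat (−1.82 ± 0.62, edgeR adjusted p = 0.319), lower in 5 of 6. DESeq2 called miR-31 (adjusted p = 0.0338), as did edgeR with no filter (adjusted p = 0.0186), and its value was −1.21 with all 36 libraries and no block. DESeq2 also called miR-369-3p, which this list shares with the DLK1-DIO3 domain. Brown and beige fat miRNAs had 11 of 18 above 0 (median 0.23, and 0.01 on library totals alone), with miR-455-3p, which promotes brown fat formation, at −0.95 ± 0.31 (edgeR adjusted p = 0.300).

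All 6 tested members of the miR-30 family, which favours fat cell formation, lay above 0, with a median of 0.62. That value leans on buffalo 1, whose sternal library had 3606 CPM of miR-30d against 359 to 595 CPM in the others. The difference of miR-30d was 0.82 ± 0.43 with buffalo 1 and 0.30 without it. In buffalo 6 all 6 members of the family lay below 0 (median −0.73). In the miR-23, miR-27 and miR-24 clusters 7 of 8 lay above 0 (median 0.38), and in the stromal miR-199 and miR-214 list 5 of 5 (median 0.37). In buffalo 1, however, 7 of the 8 cluster members lay below 0 (median −1.12). Of the 5 stromal members, 3 lay below 0 in buffalo 1 and 4 in buffalo 5. In the miR-181 family 3 of 4 lay above 0 (median 0.32) and in the miR-29 family 1 of 5 (median −0.12). The miR-17-92 clusters had 6 of 12 above 0 (median 0.02), and the ruminant miR-2284 and miR-2285 family 14 of 20 (median 0.16), with 93 more members below the filter. The medians of these last 2 lists turned to −0.17 and −0.05 on library totals alone (the first also to −0.02 with RLE factors), and 2 of the 5 stromal and 2 of the 4 miR-181 members then lay below 0.

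Markers of other cell types were read in every library, since sternal and inguinal fat lie over different tissues. In bulk tissue fewer cells of a type and less RNA per cell cannot be told apart. The muscle miRNA miR-1 was at 14.4 to 32.7 CPM (median 17.3) in sternal and 21.3 to 92.5 CPM (median 45.1) in inguinal fat, lower in sternal fat in 6 of 6 buffaloes (−1.23 ± 0.27, edgeR adjusted p = 0.202), and called by DESeq2 (−1.27, adjusted p = 0.00648). All 4 tested muscle miRNAs lay below 0. The summed level of all 7 listed, tested or not, ran from 32.2 to 56.9 CPM in sternal and 38.2 to 122 CPM in inguinal fat. The skeletal muscle marker miR-206 was at 1.13 to 23.0 CPM in sternal and 4.47 to 57.5 CPM in inguinal fat, highest in inguinal library 6. Whether muscle RNA had a part in any difference was not tested.

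Blood markers were read next. The red cell miRNA miR-451 ran from 7605 over 15716 to 35078 CPM in sternal and from 13664 over 19181 to 70042 CPM in inguinal fat, lower in sternal fat in 6 of 6 (−0.69 ± 0.24, edgeR adjusted p = 0.319), and the summed red cell list from 7628 to 35143 and 13706 to 70252 CPM. Of the 3 red cell miRNAs 2 lay below 0, with miR-451 alone at an unadjusted p under 0.05. Of the 8 leukocyte miRNAs 5 lay above 0, and the list had a median of 0.16 (−0.04 on library totals alone), with 0 at an unadjusted p under 0.05, and summed to 3660 to 9008 CPM in all libraries but inguinal library 6, at 28978 CPM. There miR-150 of lymphocytes reached 21306 CPM, against 1483 to 4560 CPM in the other inguinal libraries, and miR-142-5p 42.7 CPM. This is the inguinal library of the buffalo in which the DLK1-DIO3 miRNAs showed no lean. The part of blood cells in that was not tested, and miR-196a was called without buffalo 6 as with it.

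Endothelial and vessel wall markers were not called. The 2 arms of miR-126, of endothelial cells, lay on either side of 0, miR-126-3p at −0.15 (95% interval −0.62 to 0.33) and the less abundant miR-126-5p at 0.61 ± 0.36 (edgeR adjusted p = 0.512), with a median of 0.23. The difference of miR-143, of smooth muscle, was −0.18 ± 0.19 (95% interval −0.62 to 0.25). Epithelial miRNAs, which skin or mammary tissue would bring, summed to 5.48 to 26.5 CPM in sternal and 6.10 to 75.9 CPM in inguinal fat. The 75.9 CPM were those of inguinal library 6, against at most 22.2 CPM in the other inguinal libraries. The defining marker miR-205 was at 0 in 4 sternal and 1 inguinal libraries and nowhere above 1.36 CPM, also in inguinal library 6. The liver marker miR-122 reached at most 1.05 CPM in sternal fat and 11.1 CPM in inguinal fat, the latter again in library 6. Neural miRNAs had 7 of 10 tested members below 0 and 3 above (median −0.67). By animal this median was above 0 in buffaloes 3 (0.32) and 6 (1.19). Lower in sternal fat in 6 of 6 was miR-9-5p (−0.85 ± 0.37, edgeR adjusted p = 0.39), at medians of 2.30 and 6.25 CPM. The other way went miR-132, higher in 5 of 6 (0.62 ± 0.33, edgeR adjusted p = 0.486), at medians of 11.2 and 6.56 CPM. The neural marker miR-124a was at 0 in 1 library of each depot and reached 8.95 CPM.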

How the data were processed

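RNA came from the RNeasy Lipid Tissue Mini Kit and the libraries from the TruSeq RNA LT kit v2, per the labels' protocols. The authors deposited whole-number read counts per feature and library, not normalized, and RPM values beside them that equal the count over the library total (largest difference 4.79e-06). The submitters' processing notes name DESeq2 1.24.0 without saying what for. The genome build, aligner and caller are not given in the sources used. The table holds 1 row with no name and 0 counts, which was left out, and no column of another sample.

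Counts were tested in R 4.3.3 with edgeR 4.0.16 (robust glmQLFit, glmQLFTest, two-sided), with TMM factors of 0.803 to 1.20, filterByExpr with a minimum count of 10, and depot plus animal as terms, leaving 5 residual degrees of freedom and a biological coefficient of variation of 0.539. The printed SE is the difference over the square root of F. CPM use the TMM-scaled sizes, and log2 CPM a prior count of 2. The pairing comes from the animals: within an animal, deviations from the 2 depot means had a mean correlation of 0.247, between animals of −0.0469. In 5 of 6 animals it exceeded 0.1, the lowest of them buffalo 4 at 0.104, and in buffalo 6 it was −0.0484. The difference between contrasts used the 24 libraries of 4 depots. Library measures were tested over all 64 sign changes.

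Named features were those called, else up to 8 per direction by smallest p, with at least 10 CPM in the higher depot and at least 5 of 6 animals in 1 direction, plus HOX-cluster miRNAs, the 5 most abundant with a miRNA name and up to 4 per list. Members and lists were chosen with earlier results of these data known. Alternatives were RLE factors, library totals, other filters, no block, all 36 libraries, DESeq2 1.42.0 and limma 3.58.1 on log2(RPM + 1) of the deposited RPM. Further ones were miRNA names only, closely named members summed and each animal left out. The edgeR fit was also run on counts simulated from fitted means and spreads of these libraries. Such counts follow the model of the test, so that run cannot show how well the fit holds for the real counts.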

Additional observations from a re-analysis of the deposited data

Results flagged for a closer look

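Of 116 groups of 6 libraries, from 53 named features and 5 library measures in each depot, 20 held a library whose gap to the nearest other exceeded Dixon's 95% critical share of the group's range. For normally distributed values chance flags about 1 in 20 groups. CPM on a linear scale need not be normal, the rate for such values was not tested, and all 20 were the highest of their group. In buffalo 1 the sternal library was high in miR-148c (730 CPM, others 29.8 to 212), NC_059178.1_42973 (2228 CPM, others 34.8 to 244), miR-374b (123 CPM, others 17.1 to 39.6), miR-24 (92.9 CPM, others 16.9 to 43.0), miR-30d (3606 CPM, others 359 to 595) and miR-16a (941 CPM, others 298 to 430). Its inguinal library was high in miR-148c (124.3 CPM, others 15.8 to 36.9), NC_059178.1_42973 (389 CPM, others 17.6 to 58.6), miR-152 (1059 CPM, others 108 to 260) and miR-16b (10.5 CPM, others 5.10 to 6.44).

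Buffalo 2 stood apart in DLK1-DIO3 miRNAs: miR-411c-5p in sternal (45.4 CPM, others 16.3 to 25.4) and inguinal fat (116 CPM, others 36.0 to 58.3), miR-369-3p in inguinal (23.2 CPM, others 4.32 to 8.98) and miR-493 in sternal fat (93.0 CPM, others 17.0 to 43.7). It also stood apart in miR-196b of sternal fat (3094 CPM, others 376 to 1196) and miR-375 of inguinal fat (216.9 CPM, others 0.191 to 68.7). Inguinal library 6 stood apart in miR-150 (21306 CPM, others 1483 to 4560) and miR-200c (13.1 CPM, others 2.12 to 2.76), sternal library 6 in miR-27a-5p (258 CPM, others 11.1 to 44.5) and sternal library 4 in miR-181d (72.9 CPM, others 19.2 to 32.6).

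The sternal minus inguinal difference differed from the pericardial minus perirenal one, by edgeR's test of that difference, by 4.15 for miR-10a, 3.35 for miR-10b, 4.11 for miR-196a and 6.00 for miR-196b on the log2 scale.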

How the results depend on the processing

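The count of 1 lower and 0 higher features was the same with RLE factors, library totals, a mean of at least 10 CPM, limma, miRNA names only and each animal left out. Without the replicate block it was also 1 and 0. With no filter 8 were lower and 5 higher, with DESeq2 15 and 4. With all 36 libraries the counts were 4 and 0 without and 2 and 0 with the replicate block. With closely named members summed they were 0 and 0, since miR-196a then was no feature of its own. The count of DLK1-DIO3 members with an unadjusted p under 0.05 ran from 8 to 18 over the animals left out. With library totals the median over all features shifted by −0.20.

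Over 17 settings the 53 named features gave 882 values. Of these 853 kept direction and side of the threshold, 27 of named features other than miR-196a were called only under the alternative (14 with DESeq2 and 9 with no filter), and 2 changed sign: miR-200c to −0.002575 with all 36 libraries and no replicate block, and miR-375 to 0.14 without buffalo 5 (−1.22 to 0.14 over the animals left out). The cause was not tested. All 40 values of the HOX contrast differences and all 30 of the library measures kept theirs. The main edgeR test did not call miR-127, which DESeq2 and edgeR with no filter called on the same 6 pairs. Among small values, miR-10b moved from 0.24 to 0.04 with limma, let-7f from 0.45 to 0.25 with limma, and let-7c from 0.29 to 0.09 on library totals. Larger values moved further on the log2 scale, with ranges over the settings of −1.65 to 0.14 for miR-375, −1.32 to −0.06 for miR-26a and −2.42 to −1.21 for miR-31. Low counts add counting error that was not tested.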

Other observations

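In the other lists edgeR called 0 members. In the kidney and gut epithelium list 3 of 5 tested miRNAs lay below 0 (median −0.14), although miR-204, which favours fat over bone formation in precursor cells, ran from 648 over 10996 to 18488 CPM in sternal and from 2497 over 4607 to 8051 CPM in inguinal fat (0.93 ± 0.61, edgeR adjusted p = 0.583). That value was 0.55 without buffalo 6 and 1.40 without buffalo 2. In the X-linked miR-424 and miR-503 cluster 4 of 5 lay below 0 (median −0.47), with miR-424-5p at −1.10 ± 0.58 on a few CPM and at −0.60 without buffalo 4. The miR-15, miR-16, miR-195 and miR-497 list had 3 of 6 above 0 (median 0.16), and the miR-99, miR-100 and miR-125 list 4 of 6 (median 0.22), with miR-125a at 0.62 ± 0.32 and at 0.38 without buffalo 6. For miR-221 and miR-222, 1 of 2 lay above 0 (median 0.18), for miR-34 and miR-449 1 of 2 (median −0.05), and for miR-224 and miR-452 0 of 2 (median −0.24). On library totals alone the medians of the miR-15 list (−0.04) and of miR-221 and miR-222 (−0.01) turned below 0.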
